A study of Mus musculus with 128 samples.

Results

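Autophagy and lysosome genes were followed in mouse liver through refeeding. The 36 genes were chosen by name: 5 Atg8-family genes, 4 cargo receptors, 3 genes of the Ulk1 kinase complex, 4 of the class III PI3-kinase complexes, 5 for lipid transfer and phosphoinositide binding, 6 for conjugation, 2 transcription factors, 3 lysosomal membrane proteins and 4 lysosomal hydrolases. All 36 were among the 35275 genes of the deposited table, and all 36 passed the filter on low counts, as did 16886 genes in all. No measured value entered the choice, although earlier results of these data were known when it was made.

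The series holds 63 BALB/c and 65 C57BL6/J liver RNA-seq libraries in 26 groups, of 5 libraries each or 4 for BALB/c glucose 12 h and BALB/c fructose 12 h. All mice were wild type males of the inbred strains BALB/c and C57BL6/J, given as 8 weeks old. They were trained for 1 week to a daily feeding window, fasted for 21 h, kept without water at the end of the fast, and then offered chow in the evening with water holding 20% glucose, sucrose or fructose, or with plain water. Livers were taken 3, 6 or 12 h after feeding began, or at 0 h, still fasted. Refed livers were compared with 0 h livers of the same strain, and each sugar with water at the same hour. The labels do not say whether food was taken away again on that day, and hours after feeding cannot be told apart from time of day.

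Autophagy encloses cytoplasm in a double membrane that fuses with the lysosome, where acid hydrolases break the cargo down. The Ulk1 kinase complex starts the process, the class III PI3-kinase marks the membrane, Atg2 and Wipi proteins feed and read that membrane, and the conjugation enzymes attach Atg8 proteins to it. In the fasted liver this supplies amino acids and lipids, and insulin and amino acids hold it back through mTORC1. The factors Tfeb and Tfe3 bind E-box sequences in promoters of many lysosome genes and are held in the cytoplasm by the same kinase.

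The libraries held 18541545 to 43118895 counted reads. Hepatocyte markers summed to 43300 to 128709 CPM (counts scaled to a fixed library size), and 9 Kupffer cell and macrophage markers to 111 to 738 CPM, so the labelled tissue carried its own markers throughout. Bulk RNA cannot tell fewer cells of a type from less RNA per cell. A pair of 0 h libraries stood apart. In BALB/c 0 h replicate 1, 22 of the 36 genes were above and 10 below every other library of the group. In C57BL6/J 0 h replicate 2, 18 of the 36 were below and 2 above the rest, and over 695 genes that change with time it was nearest to the 3 h libraries. Results that rest on either of these 0 h libraries are given with and without it. Over the same 695 genes, BALB/c fructose 6 h replicate 4 was nearest to the 12 h fructose libraries. Skeletal muscle transcripts were also present: the 10 markers summed to over 50 CPM in 6 of 10 water libraries at 0 h, 6 of 10 at 3 h, 8 of 10 at 6 h and 1 of 10 at 12 h. In 1 water library, C57BL6/J 6 h replicate 2, the 5 adrenal cortex markers summed to 599 CPM, against a median of 3.50 CPM over all libraries. With sugar at 6 h, 1 library each of BALB/c fructose, C57BL6/J glucose and C57BL6/J sucrose reached 231, 266 and 97.5 CPM. The part of adrenal RNA in the 6 h results was not tested.

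Per gene length, the 36 genes spanned a wide range of levels, and the highest came from several roles. Lamp1, a glycoprotein that coats the inside of the lysosomal membrane, had a median of 251 FPKM (reads scaled by gene length and library size) over all libraries, and the protease gene Ctsl 249.7 FPKM. Sqstm1, which encodes the cargo receptor p62, followed with 176 FPKM and Gabarap with 174 FPKM. The genes that start and shape the autophagosome were far lower, with 13.6 FPKM for Ulk1, 3.78 FPKM for Atg14, 3.20 FPKM for Wipi1 and 3.09 FPKM for Atg9a, the lowest of the 36.

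Promoter windows reaching from 250 bases before to 50 bases after the RefSeq start site (GRCm38.p6) were found for 29 of the 36 genes. The E-box letters CACGTG, which read the same on both strands, were in 9 of these 29 genes, against 7.15% of all 32851 promoter windows. The longer TCACGTG, searched on both strands and always part of a CACGTG match, was in 6 genes against 3.77% of all windows, and TCACGTGA in 3 genes against 0.974%. GTAAACA, the core of the forkhead motif, was in none of the 29 genes and in 3.65% of all windows. These matches are letters in a window and say nothing about whether a factor was bound. The windows are shown because they set promoters with the E-box, 2 matches in Mcoln1 and 4 in Lamp1, beside that of Ulk1, which has none. CACGTG is in capitals, and each line reads 5′ to 3′ on the strand of the gene. Mcoln1, Lamp1 and Ulk1 are given as whole windows, at chr8:3500269-3500568 (plus strand) for Mcoln1, chr8:13158911-13159210 (plus strand) for Lamp1 and chr5:110810032-110810331 (minus strand) for Ulk1. The other lines are 30 bases around one match, at chr14:47568418-47568447 (minus strand) for Atg14, chr7:138909597-138909626 (minus strand) for Bnip3, chr13:64370739-64370768 (minus strand) for Ctsl, chr16:45158746-45158775 (plus strand) for Atg3 and chr10:44268313-44268342 (plus strand) for Atg5.
Mcoln1: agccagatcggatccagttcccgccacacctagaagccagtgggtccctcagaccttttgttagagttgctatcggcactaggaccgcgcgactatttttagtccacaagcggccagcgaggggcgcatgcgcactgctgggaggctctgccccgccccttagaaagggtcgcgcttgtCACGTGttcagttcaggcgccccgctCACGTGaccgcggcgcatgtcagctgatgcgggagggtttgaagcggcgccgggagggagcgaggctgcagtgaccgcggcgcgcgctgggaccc
Lamp1: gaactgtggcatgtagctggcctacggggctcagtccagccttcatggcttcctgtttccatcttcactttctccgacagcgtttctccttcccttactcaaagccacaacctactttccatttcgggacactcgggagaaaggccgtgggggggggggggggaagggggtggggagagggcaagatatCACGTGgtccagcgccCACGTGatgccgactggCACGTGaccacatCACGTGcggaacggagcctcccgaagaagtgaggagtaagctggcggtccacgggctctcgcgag
Ulk1: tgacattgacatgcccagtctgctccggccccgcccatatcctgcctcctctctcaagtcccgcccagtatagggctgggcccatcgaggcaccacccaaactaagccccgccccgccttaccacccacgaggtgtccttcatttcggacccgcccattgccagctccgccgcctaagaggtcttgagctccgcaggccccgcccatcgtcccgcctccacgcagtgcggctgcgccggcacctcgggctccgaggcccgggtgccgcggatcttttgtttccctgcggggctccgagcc
Atg14: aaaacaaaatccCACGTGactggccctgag
Bnip3: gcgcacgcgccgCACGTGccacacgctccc
Ctsl: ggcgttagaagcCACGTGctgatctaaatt
Atg3: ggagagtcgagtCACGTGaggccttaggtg
Atg5: cggagcgcttgcCACGTGgtcttggtgacg

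The first comparison asked how the genes differ between refed livers on plain water and fasted livers. At 3 h, 17 of the 36 genes fell against 0 h, none rose, and 19 did not pass an adjusted p of 0.05 (edgeR quasi-likelihood test on counts, averaged over both strains, Benjamini-Hochberg over 16886 genes). Of all genes tested, 25.4% were called in this comparison. The median log2 fold change of the 36 was -0.23, against -0.01 for all genes. At 6 h, 19 fell, 3 rose and 14 were not called, against 28.8% of all genes called, with a median of -0.38 for the 36 and 0.00 for all genes. At 12 h, 10 fell, 1 rose and 25 were not called, against 17.6% of all genes, with medians of -0.12 and -0.01. These 3 comparisons share the 0 h libraries. Without both 0 h libraries that stood apart, 15 genes fell and 2 rose at 3 h, 18 fell and 3 rose at 6 h, and 6 fell and 2 rose at 12 h. Of all genes, 28.4%, 28.9% and 18.9% were then called. Leaving out 1 replicate number from every group gave 16 to 19 calls at 3 h, 20 to 22 at 6 h and 6 to 11 at 12 h, with 6 at 12 h without replicate 3. In these runs 19 to 25.8%, 20.7 to 29.1% and 11.1 to 17.0% of all genes were called. Of the 9 Kupffer markers tested none was called by edgeR at any of the 3 times. Of 5 hepatocyte markers, 2 were lower at 3 h and at 12 h and 1 was higher at 6 h. Of 5 cholangiocyte markers 2 were higher at 3 h and at 6 h and 1 at 12 h, and of 5 stellate cell markers 1 was higher at 3 h, 2 at 6 h, and 1 higher and 1 lower at 12 h. Of 5 T and B cell markers 1 was lower at 3 h and at 6 h, and of 5 endothelial markers 1 was lower at 6 h. All 5 adrenal markers were called higher at 6 h, where 1 of 10 water libraries, C57BL6/J replicate 2, had a marker sum of 599 CPM. The median sum was 3.08 CPM at 6 h and 3.77 CPM at 0 h. At 12 h 1 adrenal marker was lower. Without replicate 2 of every group, which removes that 6 h library, 22 of the 36 genes were called at 6 h, beside 29.1% of all genes. The part of other cell types in these results was not tested.

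**Figure D1:**
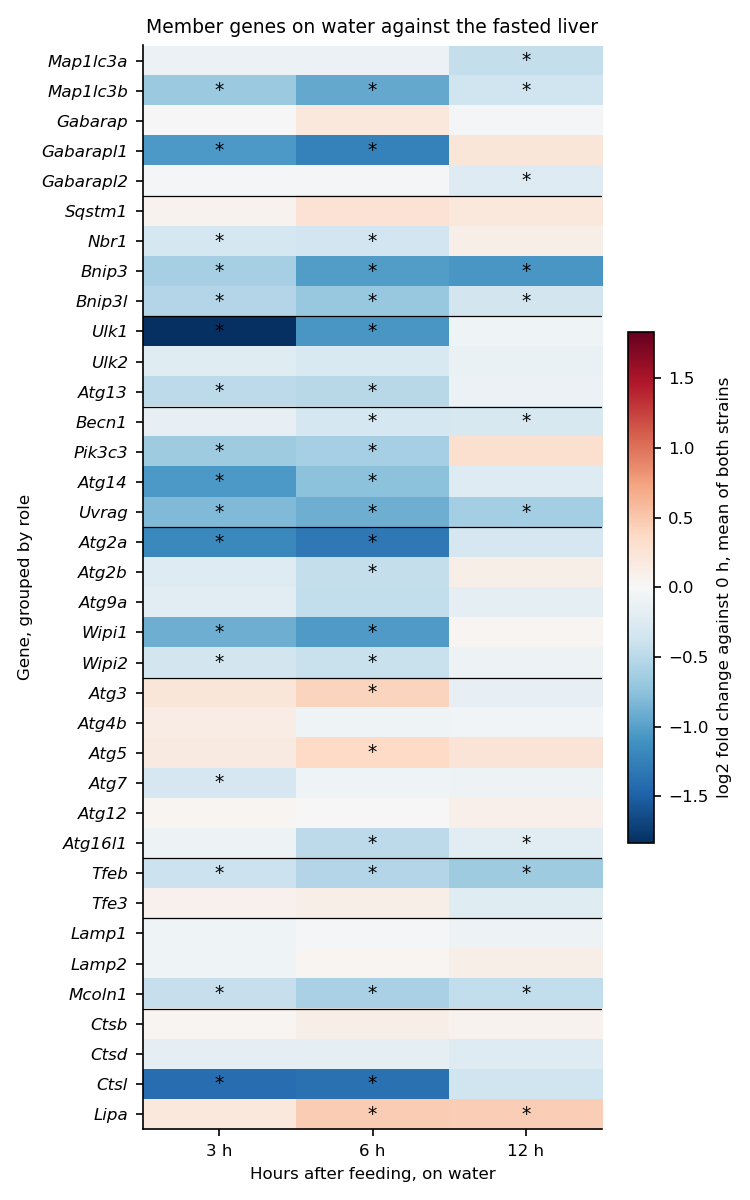
Log2 fold changes of the 36 genes on water at 3, 6 and 12 h against 0 h (mean of both strains), one row per gene and one column per time, with black lines between roles. Blue is lower and red higher than in the fasted liver, and an asterisk marks an adjusted p under 0.05; the strip of blue runs through the kinase, PI3-kinase and lipid-transfer rows at 3 and 6 h, and at 12 h there are 11 asterisks.

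The kinase that starts autophagy showed the largest fall at 3 h. Ulk1 (chr5:110784488-110810097, minus strand) had 137, 74.7, 86.0, 75.4 and 87.3 CPM at 0 h, 24.2, 24.4, 26.7, 34.0 and 24.2 at 3 h, 31.7, 33.6, 47.8, 58.7 and 34.9 at 6 h and 150.0, 81.3, 62.5, 83.9 and 82.1 at 12 h in BALB/c livers. In C57BL6/J livers it had 98.6, 21.2, 102, 115 and 94.9 CPM at 0 h, 20.2, 22.8, 21.2, 34.0 and 18.1 at 3 h, 28.1, 30.7, 57.5, 60.4 and 39.2 at 6 h and 83.8, 78.7, 79.0, 72.7 and 73.0 at 12 h. Every BALB/c library at 3 and 6 h lay below every BALB/c library at 0 h, whereas in C57BL6/J the 0 h library that stood apart, at 21.2 CPM, lay within the 3 h group. The log2 fold change was -1.83 ± 0.19 at 3 h, a level 0.281 times that at 0 h (adjusted p = 6.96e-14, 10 of 10 libraries below the 0 h mean of their strain). It was -1.07 ± 0.18 at 6 h and -0.08 ± 0.18 at 12 h, the last not called. In the libraries of the series with at most 50 CPM of muscle markers, the 6 h change was -0.43 ± 0.36 and not called. That limit left out 4 of 5 water libraries at 6 h and 3 of 5 at 0 h in each strain. With so few libraries the test cannot tell a smaller change from lost precision. Between 3 and 6 h Ulk1 was one of 2 members called, against 8.08% of all genes: it rose by 0.76 ± 0.18, while Atg16l1 fell with a change of -0.38 ± 0.07. Without replicate 3 of every group the Ulk1 step was no longer called.

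Atg13, the adaptor of the same kinase, changed less. It had 63.0, 36.1, 51.1, 45.5 and 50.7 CPM at 0 h, 31.1, 44.8, 37.0, 30.8 and 40.5 at 3 h, 29.5, 34.8, 40.4, 37.2 and 29.7 at 6 h and 88.4, 52.0, 43.0, 41.8 and 38.8 at 12 h in BALB/c livers. The C57BL6/J livers had 59.2, 38.8, 59.6, 50.6 and 53.4 CPM at 0 h, 41.1, 40.8, 35.1, 25.7 and 37.3 at 3 h, 28.3, 41.1, 37.6, 40.2 and 37.5 at 6 h and 40.1, 50.7, 33.5, 43.4 and 43.1 at 12 h. The groups overlapped in both strains, at 3 and 6 h in C57BL6/J only through 0 h replicate 2, the library that stood apart, at 38.8 CPM. The log2 fold change was -0.47 ± 0.11 at 3 h and -0.50 ± 0.11 at 6 h. The paralogous kinase Ulk2 had changes of -0.23 ± 0.15 and -0.28 ± 0.15 and was called at neither time.

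Of the genes of the class III PI3-kinase complexes, 3 of 4 were called lower at 3 h and 4 of 4 at 6 h. Of all genes, 25.4% were called at 3 h and 28.8% at 6 h. Atg14 (chr14:47540894-47568434, minus strand), the subunit that directs the lipid kinase to forming autophagosomes, had 19.2, 15.6, 16.6, 15.5 and 24.3 CPM at 0 h, 7.65, 9.48, 7.41, 8.57 and 9.85 at 3 h, 9.15, 10.5, 11.1, 9.13 and 8.20 at 6 h and 22.4, 18.5, 15.0, 14.7 and 14.9 at 12 h in BALB/c. In C57BL6/J it had 21.1, 9.80, 19.5, 26.8 and 24.1 CPM at 0 h, 8.64, 10.3, 8.84, 11.6 and 9.76 at 3 h, 11.7, 14.6, 14.4, 14.5 and 12.0 at 6 h and 16.0, 20.7, 14.9, 12.7 and 13.3 at 12 h. All BALB/c livers at 3 and 6 h were below all at 0 h, while in C57BL6/J both refed groups overlapped with 0 h. That overlap came only from 0 h replicate 2, the library that stood apart, at 9.80 CPM. The other C57BL6/J livers at 0 h, at 19.5 to 26.8 CPM, were above all at 3 and 6 h. The change was -1.06 ± 0.13 at 3 h and -0.75 ± 0.13 at 6 h. At 12 h it was -0.24 ± 0.13 and not called.

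Uvrag, the subunit of the complex that acts at endosomes, had 86.0, 32.8, 34.9, 29.3 and 45.9 CPM at 0 h, 23.1, 26.5, 21.2, 15.9 and 22.9 at 3 h, 16.0, 20.8, 25.7, 21.7 and 19.8 at 6 h and 26.1, 36.3, 26.9, 20.4 and 20.6 at 12 h in BALB/c. C57BL6/J livers had 36.9, 20.2, 28.7, 27.3 and 30.7 CPM at 0 h, 18.8, 21.6, 18.2, 18.3 and 20.1 at 3 h, 15.2, 21.0, 17.3, 19.1 and 16.8 at 6 h and 19.3, 27.1, 18.6, 20.4 and 21.7 at 12 h. Every BALB/c liver at 3 and 6 h was below every one at 0 h, while in C57BL6/J both refed groups overlapped with 0 h. Only 0 h replicate 2, the C57BL6/J library that stood apart, made this overlap, at 20.2 CPM against 27.3 to 36.9 CPM in the others. Uvrag was called lower at each of the 3 times, with changes of -0.81 ± 0.13, -0.90 ± 0.13 and -0.62 ± 0.13. Without replicate 1 of every group, which removes the BALB/c 0 h library at 86.0 CPM, the 12 h change was -0.35 with an adjusted p of 0.075.

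Pik3c3, which encodes the lipid kinase itself, had 15.1, 10.4, 12.8, 10.3 and 15.9 CPM at 0 h, 7.62, 10.4, 9.60, 6.76 and 8.24 at 3 h, 7.77, 8.42, 9.45, 10.0 and 8.20 at 6 h and 13.3, 18.8, 17.6, 14.2 and 14.3 at 12 h in BALB/c. The C57BL6/J values were 17.4, 8.99, 13.6, 13.0 and 17.7 CPM at 0 h, 9.70, 6.99, 7.79, 6.95 and 11.7 at 3 h, 6.04, 8.99, 10.2, 9.69 and 8.96 at 6 h and 14.8, 22.1, 16.5, 16.2 and 18.7 at 12 h. Its change was -0.65 ± 0.13 at 3 h and -0.61 ± 0.13 at 6 h, and at 12 h it was above 0, at 0.30 ± 0.12 with an adjusted p of 0.088. The 6 h change was -0.40 and not called in libraries low in muscle markers, where groups held as few as 1 library. Becn1, the scaffold of both complexes, changed by -0.32 ± 0.07 at 6 h and -0.30 ± 0.07 at 12 h.

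Among the genes for lipid transfer and phosphoinositide binding, 3 of 5 fell at 3 h and 4 of 5 at 6 h, beside 25.4% and 28.8% of all genes called. Atg2a (chr19:6241668-6262335, plus strand), whose protein moves lipids into the growing membrane, had 303, 89.5, 70.6, 89.2 and 54.6 CPM at 0 h, 44.5, 36.2, 44.7, 49.8 and 35.5 at 3 h, 37.8, 34.7, 43.0, 48.0 and 33.1 at 6 h and 123, 52.9, 58.7, 76.4 and 59.5 at 12 h in BALB/c livers. It had 80.9, 35.0, 89.0, 106 and 78.1 CPM at 0 h, 40.2, 46.0, 40.4, 51.6 and 36.4 at 3 h, 37.9, 29.4, 55.0, 36.1 and 35.3 at 6 h and 89.6, 62.8, 100.4, 89.6 and 72.9 at 12 h in C57BL6/J livers. The BALB/c groups at 3 and 6 h did not overlap with 0 h. Those of C57BL6/J overlapped only with 0 h replicate 2, the library that stood apart, at 35.0 CPM against 78.1 to 106 CPM in the others. The change was -1.19 ± 0.17 at 3 h and -1.31 ± 0.17 at 6 h, and -0.84 and -0.95 without replicate 1 of every group, both still called. Its paralog Atg2b was called at 6 h only, at -0.43 ± 0.10.

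Wipi1, a reader of the lipid that Pik3c3 makes, had 24.1, 10.9, 13.3, 8.73 and 12.4 CPM at 0 h, 7.88, 7.84, 6.97, 7.66 and 7.87 at 3 h, 6.46, 6.77, 6.92, 6.86 and 7.66 at 6 h and 15.9, 12.5, 11.6, 11.1 and 11.2 at 12 h in BALB/c. In C57BL6/J it had 20.8, 8.04, 13.1, 15.0 and 18.5 CPM at 0 h, 8.55, 10.2, 6.88, 6.75 and 6.72 at 3 h, 5.68, 6.36, 9.21, 8.43 and 5.53 at 6 h and 19.8, 21.2, 11.3, 16.5 and 19.9 at 12 h. The refed BALB/c livers at 3 and 6 h were within 6.46 to 7.88 CPM, all below the fasted ones. In C57BL6/J the refed and fasted groups overlapped at both times, but only through 0 h replicate 2, the library that stood apart. It had 8.04 CPM, against 13.1 to 20.8 CPM in the other fasted C57BL6/J livers. Wipi1 changed by -0.90 ± 0.14 at 3 h and -1.04 ± 0.14 at 6 h, and by 0.04 ± 0.14 at 12 h, which was not called. Wipi2, the family member that recruits the conjugation complex, had changes of -0.33 ± 0.07 and -0.41 ± 0.07, both called. Atg9a, the scramblase of the seed vesicles, had a change of -0.45 ± 0.22 at 6 h and was not called.

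**Figure D2:**
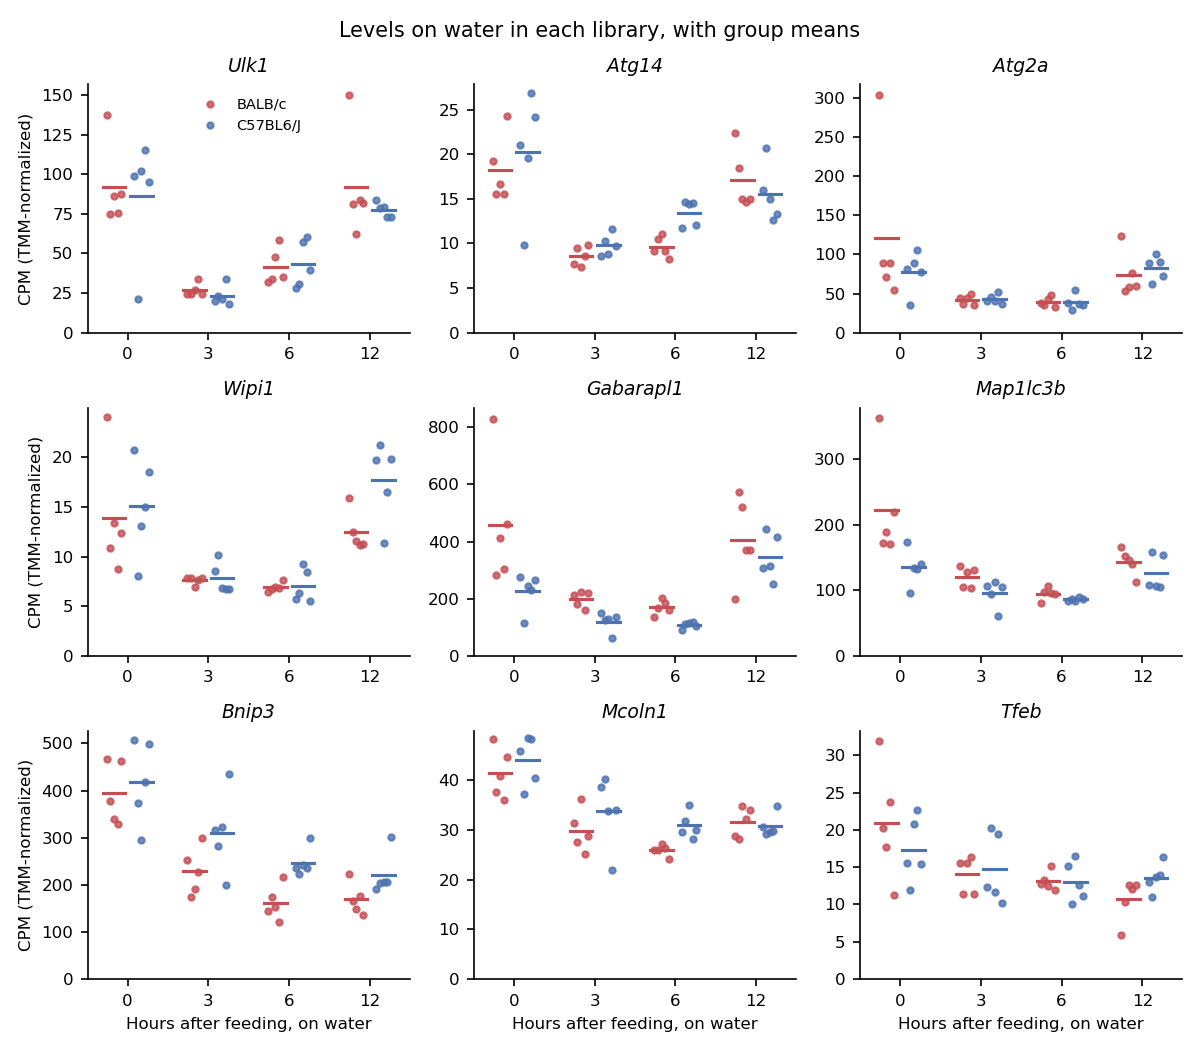
TMM-normalized CPM of 9 of the genes on water (vertical axis, from 0) at 0, 3, 6 and 12 h after feeding (horizontal axis), with one point per library, red for BALB/c and blue for C57BL6/J, and bars at group means. Points at 3 and 6 h lie low for Ulk1, Atg14, Atg2a, Wipi1 and Gabarapl1, and Bnip3 at 12 h has group means of 170.1 CPM in BALB/c and 222 CPM in C57BL6/J.

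Of the 5 Atg8-family genes, Gabarapl1 and Map1lc3b were called at 3 and 6 h and the other 3 were not, beside 25.4% and 28.8% of all genes. Gabarapl1 (chr6:129533200-129542331, plus strand) had 829.7, 282, 413, 303 and 462 CPM at 0 h, 213, 181, 224, 160.3 and 219 at 3 h, 138, 167, 202, 185 and 162 at 6 h and 198, 573, 520.5, 369.8 and 370.0 at 12 h in BALB/c. In C57BL6/J it had 278, 114, 245, 232 and 264 CPM at 0 h, 148, 126, 128.5, 61.8 and 136 at 3 h, 90.2, 113, 116, 118 and 104 at 6 h and 307, 445, 315, 250.3 and 416 at 12 h. All BALB/c livers at 3 and 6 h were below all at 0 h. The C57BL6/J groups overlapped at these times only through 0 h replicate 2, the library that stood apart. It had 114 CPM, against 232 to 278 CPM in the other fasted C57BL6/J livers. The change was -1.05 ± 0.18 at 3 h and -1.24 ± 0.18 at 6 h, whereas at 12 h it was 0.22 ± 0.18 and not called. Gabarap and Gabarapl2, from the same subfamily, had changes of 0.00 ± 0.08 and -0.04 ± 0.09 at 3 h, with intervals (95%) of -0.17 to 0.16 and -0.21 to 0.13.

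Map1lc3b, the Atg8 protein most used as an autophagosome marker, had 363, 171, 189, 170.2 and 220.0 CPM at 0 h, 137, 105, 128.3, 103 and 131 at 3 h, 80.1, 96.9, 107, 95.2 and 93.8 at 6 h and 166, 152, 146, 139.8 and 112 at 12 h in BALB/c. C57BL6/J livers had 174, 95.7, 133, 133 and 141 CPM at 0 h, 107, 93.9, 113, 60.0 and 105 at 3 h, 84.3, 86.5, 83.4, 89.2 and 87.1 at 6 h and 108, 159, 106, 104 and 153 at 12 h. All 6 h livers were below all 0 h livers in both strains, and the change was -0.68 ± 0.13 at 3 h, -0.94 ± 0.13 at 6 h and -0.37 ± 0.13 at 12 h. The 12 h call was lost without BALB/c 0 h replicate 1. Map1lc3a had changes of -0.10 ± 0.12 at 6 h and -0.43 ± 0.13 at 12 h, of which the second was called.

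Both receptors that select mitochondria, Bnip3 and Bnip3l, were called lower at 3, 6 and 12 h. Bnip3 (chr7:138890836-138909519, minus strand) had 466, 379, 340.1, 329 and 462 CPM at 0 h, 252, 175, 191, 227 and 298 at 3 h, 144, 174, 153, 121 and 216 at 6 h and 222, 166, 148, 177 and 137 at 12 h in BALB/c. It had 507, 374, 295, 418 and 499 CPM at 0 h, 316, 282, 322, 199 and 435 at 3 h, 235, 223, 242, 235 and 299 at 6 h and 192, 205, 205, 206 and 301 at 12 h in C57BL6/J. All BALB/c livers at 3, 6 and 12 h were below all at 0 h, while in C57BL6/J each refed group overlapped with 0 h. The change was -0.60 ± 0.16, -1.02 ± 0.16 and -1.07 ± 0.16 at the 3 times. Between 12 and 6 h its change was -0.05 ± 0.16, with an interval of -0.36 to 0.26.

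Bnip3l, its paralog, had 125, 74.2, 84.4, 74.3 and 90.7 CPM at 0 h, 58.5, 53.8, 55.3, 52.2 and 67.8 at 3 h, 40.2, 50.9, 53.0, 46.2 and 61.9 at 6 h and 55.0, 71.0, 64.5, 71.7 and 62.8 at 12 h in BALB/c. The C57BL6/J livers had 113, 75.2, 81.7, 94.3 and 127 CPM at 0 h, 71.5, 74.3, 74.8, 55.0 and 83.9 at 3 h, 54.9, 71.5, 57.1, 63.6 and 81.1 at 6 h and 67.6, 93.0, 79.5, 88.6 and 97.2 at 12 h. Changes were -0.54 ± 0.11, -0.70 ± 0.11 and -0.34 ± 0.11, the last lost without BALB/c 0 h replicate 1. Nbr1, a receptor for ubiquitin-tagged cargo, fell by 0.33 ± 0.09 at 3 h and fell by 0.35 ± 0.09 at 6 h.

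Sqstm1, which was not called on water with all libraries, depended on 1 fasted library. It had 1127, 308, 376, 416 and 379 CPM at 0 h, 597, 643, 521, 545 and 633 at 3 h, 532, 559, 634, 649 and 633 at 6 h and 422, 495, 508, 445 and 432 at 12 h in BALB/c livers. In C57BL6/J it had 331, 315, 273, 314 and 281 CPM at 0 h, 335, 333, 315, 186 and 302 at 3 h, 365, 359, 357, 423 and 383 at 6 h and 428, 442, 465, 410.5 and 496 at 12 h. In C57BL6/J all livers at 6 and 12 h were above all at 0 h, whereas the BALB/c groups overlapped. With all libraries the 6 h change was 0.27 ± 0.13. Without BALB/c 0 h replicate 1, at 1127 CPM, it was 0.32 ± 0.11 at 3 h, 0.52 ± 0.11 at 6 h and 0.44 ± 0.11 at 12 h, called at each time (adjusted p = 0.023, 0.00011 and 0.0017).

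Of the 6 conjugation genes, 2 rose and 1 fell at 6 h, beside 28.8% of all genes called. Atg3, the enzyme that transfers Atg8 proteins to lipid, rose by 0.40 ± 0.10, and Atg5, part of the complex that completes that step, by 0.36 ± 0.14. Atg16l1, the membrane partner of Atg5, fell with a change of -0.48 ± 0.07 in 10 of 10 libraries. Atg7, the activating enzyme, was called at 3 h only, at -0.31 ± 0.10, while Atg4b and Atg12 were called at none of the 3 times. The Atg5 call at 6 h was lost without the BALB/c 0 h library that stood apart and when replicate 2, 3, 4 or 5 was left out of every group.

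Mcoln1 (chr8:3500457-3515232, plus strand), which encodes a calcium channel of the lysosomal membrane, had the smallest adjusted p of the 36 at 6 h. It had 48.3, 37.6, 40.8, 36.0 and 44.7 CPM at 0 h, 31.5, 27.6, 36.3, 25.1 and 28.7 at 3 h, 26.0, 26.0, 27.2, 26.4 and 24.1 at 6 h and 28.7, 28.2, 34.7, 32.1 and 34.1 at 12 h in BALB/c. In C57BL6/J livers it had 45.9, 37.2, 48.6, 48.3 and 40.4 CPM at 0 h, 38.7, 40.2, 33.9, 22.0 and 34.0 at 3 h, 29.6, 31.8, 35.0, 28.1 and 30.0 at 6 h and 30.7, 29.2, 29.5, 29.7 and 34.8 at 12 h. All livers at 6 h and at 12 h were below all 0 h livers of their strain, including the fasted libraries that stood apart. Changes were -0.42 ± 0.07 at 3 h, -0.59 ± 0.07 at 6 h (adjusted p = 3.02e-12) and -0.46 ± 0.07 at 12 h. The other membrane genes, Lamp1 and Lamp2, had 6 h changes of -0.04 ± 0.13 and 0.04 ± 0.12, with intervals of -0.30 to 0.22 and -0.19 to 0.27.

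Tfeb, a transcription factor of lysosome and autophagy genes, had 32.0, 20.3, 17.7, 23.7 and 11.3 CPM at 0 h, 15.6, 11.4, 15.6, 16.4 and 11.4 at 3 h, 12.8, 13.3, 12.5, 15.2 and 12.0 at 6 h and 5.86, 10.3, 12.7, 12.1 and 12.6 at 12 h in BALB/c. C57BL6/J livers had 15.6, 12.0, 20.8, 22.7 and 15.4 CPM at 0 h, 12.3, 20.2, 11.7, 19.5 and 10.2 at 3 h, 15.1, 10.0, 16.5, 12.6 and 11.1 at 6 h and 13.0, 11.0, 13.6, 14.0 and 16.4 at 12 h. It changed by -0.39 ± 0.15, -0.53 ± 0.15 and -0.66 ± 0.15 at the 3 times, with overlap between 0 h and the refed groups in both strains at each time. The 3 h call was lost without BALB/c 0 h replicate 1. Tfe3 had changes of 0.08 ± 0.12 and 0.10 ± 0.12 and was not called with all libraries. Without that 1 library Tfe3 rose by 0.39 ± 0.10 at 3 h and 0.41 ± 0.10 at 6 h (adjusted p = 0.0012 and 0.00053).

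Among the hydrolases, Ctsb and Ctsd, both cathepsin proteases, were called at none of the 3 times, with 6 h changes of 0.10 ± 0.11 and -0.16 ± 0.11. Lipa, the lysosomal acid lipase, rose by 0.46 ± 0.15 at 6 h and 0.45 ± 0.15 at 12 h, and both calls were lost without BALB/c 0 h replicate 1, where Lipa was at 37.7 CPM against 120.0 to 178 CPM in the rest of its group.

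Ctsl (chr13:64363214-64370306, minus strand) depended on the same library. It had 10120, 616, 557, 659 and 723 CPM at 0 h, 598, 449, 409.5, 395 and 607 at 3 h, 382, 481, 509, 451 and 529.6 at 6 h and 2405, 844, 846, 836 and 626 at 12 h in BALB/c. In C57BL6/J it had 660.4, 386, 420.2, 459 and 519 CPM at 0 h, 403, 389, 362, 248 and 413 at 3 h, 387, 397, 325, 435 and 410.5 at 6 h and 556, 692, 741, 565 and 791 at 12 h. The value of 10120 CPM was 15.8 times the mean of the other 4 fasted BALB/c livers. With all libraries the change was -1.39 ± 0.26 at 3 h, -1.37 ± 0.26 at 6 h and -0.37 ± 0.25 at 12 h, the last not called. Without it the changes were -0.40 at 3 h and -0.37 at 6 h, neither called (adjusted p = 0.10 and 0.13), and at 12 h Ctsl was higher than in the fasted liver, at 0.63 ± 0.18 (adjusted p = 0.0084). The 12 h group also held 1 BALB/c library at 2405 CPM, and without replicate 1 of every group, which removes both, the 12 h change was 0.49 ± 0.15 (adjusted p = 0.017).

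Genes with CACGTG in the promoter window were found on both sides and among the uncalled at 6 h, when 28.8% of all genes were called. Of the 9 genes with it, 4 fell (Bnip3, Atg14, Mcoln1 and Ctsl), 2 rose (Atg3 and Atg5) and 3 were not called (Atg7, Ctsd and Lamp1, which holds 4 matches). Of the 20 genes with a window but no CACGTG, 11 fell, 1 rose and 8 were not called, and Ulk1 and Gabarapl1 were among those that fell. The 7 genes with no window held 4 that fell and 3 that were not called.

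The step between 6 and 12 h ran mostly upward. On water, 14 of the 36 genes rose, 5 fell and 17 were not called at 12 h against 6 h, beside 29.1% of all genes called, with a median of 0.11 for the 36 and -0.01 for all genes. Gabarapl1 rose by 1.46 ± 0.18, Wipi1 by 1.08 ± 0.14, Atg2a by 1.00 ± 0.17, Ulk1 by 0.99 ± 0.18 and Pik3c3 by 0.91 ± 0.13, each in all 10 libraries. Atg3 fell with a change of -0.55 ± 0.10, and Map1lc3a, Gabarap, Gabarapl2 and Tfe3 had called changes of -0.33, -0.21, -0.22 and -0.32. Of these 5 falls, only that of Atg3 was still called with no filter on low counts or without replicate 2 or 4 of every group. The same held in the libraries without an appended letter in their names. These libraries include neither of the fasted ones that stood apart. Muscle markers also differed across this step, with a median marker sum of 192 CPM at 6 h and 2.20 CPM at 12 h. The sum ranged over 0.925 to 111 CPM at 12 h, 1.96 to 335 CPM at 6 h and 1.35 to 316 CPM at 0 h. Calls of muscle genes between 6 and 12 h are not given here. Against 0 h, 7 of 9 muscle genes tested were called lower at 12 h. In the 63 libraries of the series with at most 50 CPM of muscle markers, all 22 genes called at 6 h kept their sign against 0 h and 9 of them were still called, with 541 of 17570 genes called in all. The calls of Gabarapl1, Ulk1, Atg14, Pik3c3, Tfeb and Atg13 were among those lost. In those libraries 1 member, Wipi1, was called between 12 and 6 h, with groups of as few as 1 library. The limit left out 4 of 5 water libraries at 6 h and 3 of 5 at 0 h in each strain, so lost calls cannot be told from lost precision. The part of muscle RNA in these results was not tested.

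The second comparison asked how sugar in the drinking water changed the genes at the same hour. At 3 h, the mean of glucose, sucrose and fructose against water gave 3 members higher and none lower, beside 3.94% of all genes called. At 6 h 2 were higher and 1 lower, beside 2.72%. At 12 h none was called by edgeR's quasi-likelihood test or by DESeq2, beside 0.172% of all genes called by edgeR. There 2 of 36 members had an edgeR unadjusted p under 0.05, a share near that of all genes, with 1029 of 16886. The median change of the 36 was 0.08 at 3 h, 0.01 at 6 h and 0.01 at 12 h, against 0.00, 0.01 and -0.01 over all genes.

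Ulk1 had the largest change with sugar of the 36 genes at 3 and at 6 h. At 3 h BALB/c livers had 59.6, 55.1, 91.6, 96.1 and 88.6 CPM on fructose, 57.7, 67.0, 74.0, 117 and 66.0 on sucrose and 36.9, 46.1, 47.0, 33.9 and 28.3 on glucose, against 24.2, 24.4, 26.7, 34.0 and 24.2 on water. C57BL6/J livers had 51.9, 116, 98.7, 177 and 93.3 CPM on fructose, 81.5, 125, 80.1, 67.1 and 73.7 on sucrose and 77.9, 57.8, 30.1, 62.8 and 40.7 on glucose, against 20.2, 22.8, 21.2, 34.0 and 18.1 on water. With fructose or sucrose every library was above every water library of its strain, while with glucose the groups overlapped in both strains. The mean of the sugars was 1.49 ± 0.16 above water, a level 2.80 times as high (adjusted p = 6.00e-11, 30 of 30 libraries above the water mean of their strain).

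Taken one sugar at a time at 3 h, the comparisons share their water libraries. Glucose called 1 member, beside 0.19% of all genes: Ulk1 at 0.88 ± 0.18. Sucrose called 4, beside 2.92%: Ulk1 at 1.70 ± 0.19, Atg14 at 0.59 ± 0.13, Wipi1 at 0.50 ± 0.14 and Sqstm1 at 0.43 ± 0.13. Fructose called 2, beside 6.71%: Ulk1 at 1.89 ± 0.19 and Atg14 at 0.71 ± 0.13. Tested directly, fructose against glucose called 1 member at 3 h, beside 2.35% of all genes: Ulk1 was 1.01 ± 0.18 higher with fructose (adjusted p = 3.10e-04, 9 of 10 libraries). Atg14 had a difference of 0.38 ± 0.13 there, with an interval of 0.12 to 0.63 and an adjusted p of 0.11. In the libraries low in muscle markers the Ulk1 difference was 0.63 ± 0.31 and no longer called. That limit left out 4 of 5 BALB/c glucose libraries at 3 h. The glucose call was lost without replicate 1, 2 or 3 of every group and in the 94 libraries without an appended letter in their names, whose meaning the labels do not give. Sucrose called 1 to 4 members without any one replicate (1 without replicate 3, Ulk1), and fructose called 6 without both fasted libraries that stood apart. For these runs the share of all genes called is not given here, so the counts cannot be set beside it.

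Atg14 had 8.89, 12.9, 9.30, 18.6 and 15.3 CPM on fructose, 10.9, 11.9, 12.8, 15.5 and 11.1 on sucrose and 10.1, 11.1, 11.0, 11.0 and 8.38 on glucose in BALB/c at 3 h, against 7.65, 9.48, 7.41, 8.57 and 9.85 on water. In C57BL6/J it had 12.4, 13.3, 20.5, 20.9 and 18.8 CPM on fructose, 15.1, 16.6, 13.8, 12.2 and 18.9 on sucrose and 13.5, 12.6, 11.5, 12.3 and 13.8 on glucose, against 8.64, 10.3, 8.84, 11.6 and 9.76 on water. Sucrose groups lay wholly above water in both strains, and fructose did so in C57BL6/J. The mean of the sugars was 0.54 ± 0.11 above water, in 29 of 30 libraries, and Sqstm1 was 0.34 ± 0.11 above it, in 25 of 30. Sqstm1 lost its call when replicate 2, 3, 4 or 5 was left out of every group. Without BALB/c 0 h replicate 1, which enters the shared spread only, 5 members were called, with Wipi1 and Tfe3 added.

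**Figure D3:**
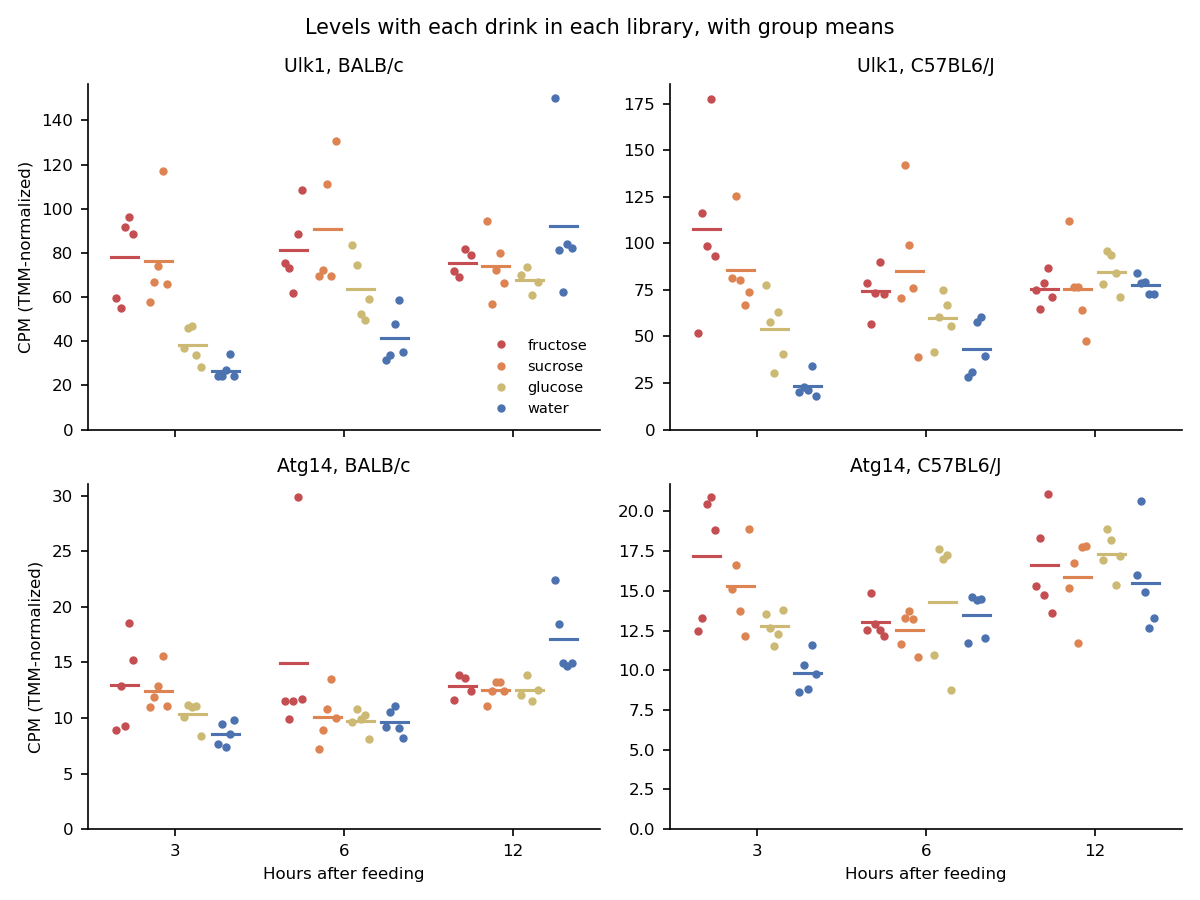
TMM-normalized CPM of Ulk1 (upper panels) and Atg14 (lower panels) in BALB/c (left) and C57BL6/J (right) at 3, 6 and 12 h after feeding, with one point per library, colours for fructose, sucrose, glucose and water, and bars at group means. At 3 h the fructose and sucrose points of Ulk1 stand at 51.9 to 177 CPM, above the water points at 18.1 to 34.0 CPM, and at 12 h the Ulk1 points of the sugars overlap with those of water.

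At 6 h Ulk1 was 0.82 ± 0.15 above water with sugar. BALB/c livers had 75.2, 73.3, 61.7, 88.5 and 108 CPM on fructose, 69.6, 72.1, 111, 69.6 and 131 on sucrose and 83.7, 74.5, 52.2, 49.8 and 58.9 on glucose, against 31.7, 33.6, 47.8, 58.7 and 34.9 on water. C57BL6/J livers had 78.7, 56.7, 73.1, 90.0 and 73.0 CPM on fructose, 70.6, 142, 99.3, 75.9 and 38.7 on sucrose and 41.5, 60.5, 74.7, 67.1 and 55.6 on glucose, against 28.1, 30.7, 57.5, 60.4 and 39.2 on water. The C57BL6/J groups overlapped for each sugar. By sugar, sucrose called Ulk1 (1.05 ± 0.18) beside 1.14% of all genes, fructose called Ulk1 (0.87 ± 0.18) and Wipi1 (0.53 ± 0.14) beside 1.23%, and glucose called none by edgeR beside 0.906%, or by DESeq2, with 5 members at an unadjusted p under 0.05. For sucrose, DESeq2 called Wipi1 and Atg3 besides Ulk1, with the share of all genes in that run not given here. Neither fructose call was kept without replicate 5 of every group. The fructose call of Wipi1 was also lost without replicate 1, 2 or 4 of every group, in the libraries without the appended letter, and without 1 library, BALB/c fructose 6 h replicate 4. Over the genes that change with time, that library was nearest to the 12 h fructose libraries. In libraries low in muscle markers neither fructose nor sucrose called a member at 6 h. That limit left out 4 of 5 fructose, sucrose and water libraries in each strain, so it cannot decide whether these changes hold.

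Wipi1 was 0.41 ± 0.12 above water at 6 h over the 3 sugars, and Atg3 was -0.31 ± 0.08, lower in 30 of 30 libraries. In C57BL6/J, Atg3 had 101, 102, 95.6, 71.1 and 81.0 CPM on fructose, 97.1, 83.3, 88.3, 75.1 and 96.0 on sucrose and 88.5, 90.5, 85.5, 82.0 and 63.7 on glucose, against 108, 112, 113, 112 and 111 on water, with no overlap for any sugar. Both calls were lost in the libraries without the appended letter and when replicate 2, 3 or 5 was left out of every group, that of Wipi1 also without replicate 1. Across the 3 sugars, edgeR called no gene of the 16886 for a difference between strains in the sugar effect at 3 or 6 h, with 646 and 455 genes at an unadjusted p under 0.05. At 12 h, where no member was called, Atg14 in BALB/c had 11.6, 13.9, 13.6 and 12.4 CPM on fructose, 11.1, 12.5, 13.3, 13.2 and 12.4 on sucrose and 12.1, 13.8, 11.6 and 12.5 on glucose, against 22.4, 18.5, 15.0, 14.7 and 14.9 on water, every sugar library below every water library. The C57BL6/J groups overlapped, and over both strains the Atg14 change was -0.17 ± 0.11 (adjusted p = 0.94). For Ulk1 at 3 h the strain difference in the sugar effect was -0.57 ± 0.30 (BALB/c minus C57BL6/J), with an interval of -1.15 to 0.01.

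The third comparison set the strains side by side over the 13 conditions that both have. In BALB/c livers 14 of the 36 genes were higher and 8 lower than in C57BL6/J livers, with 14 not called, beside 55.3% of all genes called, so the share of the members is near that of all genes. The median difference was 0.03 for the 36 and 0.01 for all genes. Tfe3 had the highest difference at 1.18 ± 0.05, a level 2.26 times as high. Bnip3 had the lowest at -0.41 ± 0.06. Markers of other cells differed between the strains as well, with 3 of 4 neutrophil markers higher and 4 of 9 Kupffer markers lower in BALB/c, and their part in these differences was not tested.

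Tfe3 (chrX:7762560-7775202, plus strand), the relative of Tfeb, separated the strains within every condition. Its lowest, median and highest levels were 26.8, 49.3 and 122 CPM in 63 BALB/c libraries, against 12.0, 20.8 and 41.0 CPM in 65 C57BL6/J libraries. In 13 of 13 conditions every BALB/c library was above every C57BL6/J library. On water, BALB/c livers had 122, 26.8, 35.6, 38.5 and 32.1 CPM at 0 h, 52.7, 62.4, 53.7, 47.5 and 54.2 at 3 h, 46.0, 61.9, 51.2, 53.0 and 46.5 at 6 h and 32.3, 42.4, 35.9, 33.4 and 35.4 at 12 h. C57BL6/J livers on water had 18.7, 18.3, 18.0, 16.8 and 15.2 CPM at 0 h, 19.6, 20.1, 19.0, 15.1 and 17.1 at 3 h, 19.0, 23.2, 19.0, 19.5 and 17.4 at 6 h and 18.7, 17.7, 21.0, 12.0 and 22.0 at 12 h. Tfeb differed by 0.01 ± 0.06 between strains, with an interval of -0.10 to 0.12, and was not called.

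Other genes higher in BALB/c were Gabarapl1 at 0.54 ± 0.07, Sqstm1 at 0.48 ± 0.05 and Lamp1 at 0.35 ± 0.05. Gabarapl1 ranged over 104 to 829.7 CPM in BALB/c (median 220.5), against 61.8 to 468 CPM in C57BL6/J (median 155), and its groups did not overlap in 5 of 13 conditions. Sqstm1 ranged over 308 to 1127 CPM in BALB/c (median 577), against 186 to 748 CPM in C57BL6/J (median 419), with no overlap in 6 of 13 conditions. Lamp1, with medians of 642 CPM in BALB/c and 516 CPM in C57BL6/J, overlapped in all 13 although its BALB/c mean was the higher each time. The other 9 genes called higher, among them Map1lc3a at 0.25 ± 0.05 and Lipa at 0.24 ± 0.06, had differences down to 0.07 ± 0.03 for Wipi2. Leaving out 1 replicate number from every group gave 19 to 24 calls, beside 48.8 to 52.4% of all genes. The call of Uvrag was lost without BALB/c 0 h replicate 1.

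Genes lower in BALB/c were Bnip3, Atg3 at -0.39 ± 0.04, Wipi1 at -0.33 ± 0.06, Bnip3l at -0.32 ± 0.04, Atg14 at -0.28 ± 0.05, Lamp2 at -0.24 ± 0.05, Atg16l1 at -0.15 ± 0.03 and Mcoln1 at -0.15 ± 0.03. Atg3 ranged over 41.5 to 92.0 CPM in BALB/c (median 67.2), against 51.4 to 118 CPM in C57BL6/J (median 83.4). All 63 BALB/c libraries were below the C57BL6/J mean of their condition for Atg3, although the groups were free of overlap in only 4 of 13. Lamp1 and Lamp2, both abundant glycoproteins of the same membrane, differed in opposite directions between the strains.

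**Figure D4:**
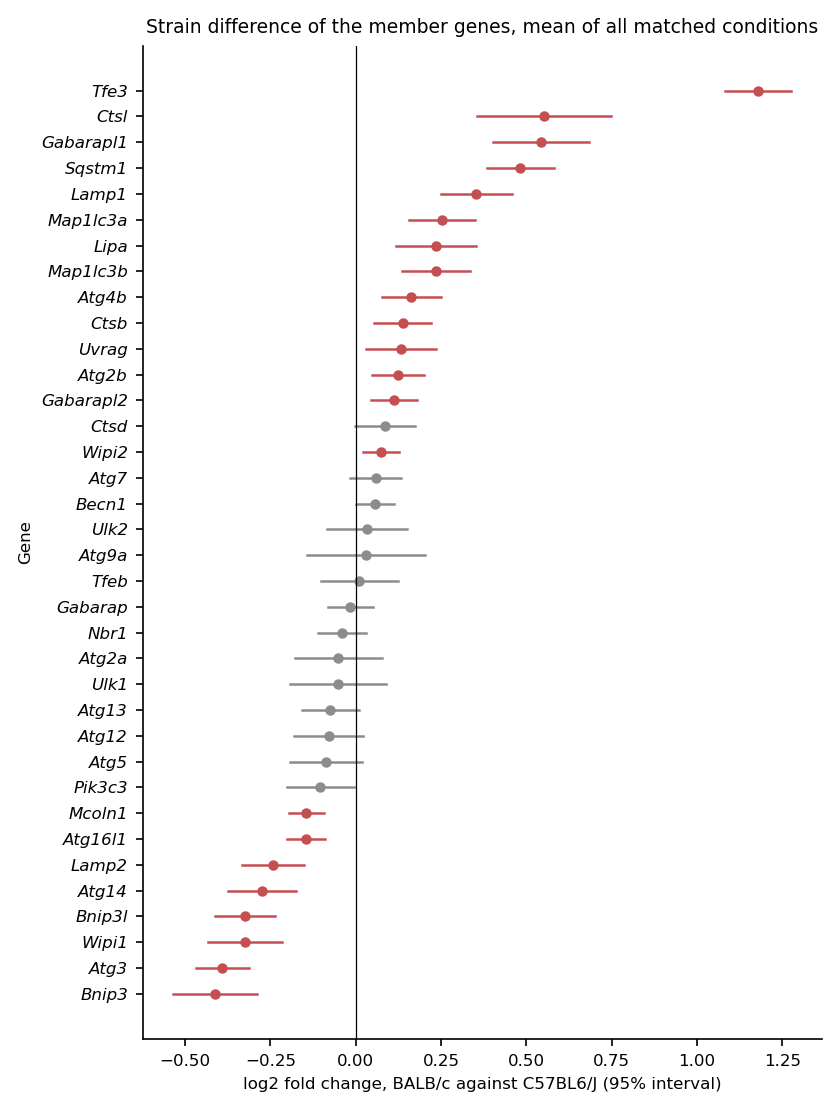
Log2 fold change of each of the 36 genes in BALB/c against C57BL6/J, averaged over the 13 matched conditions (horizontal axis), with 95% intervals as lines, red for an adjusted p under 0.05 and grey otherwise, sorted by size. Tfe3 is at 1.18, and the next genes, Ctsl, Gabarapl1 and Sqstm1, lie between 0.48 and 0.55.

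Ctsl differed by 0.55 ± 0.10 between strains, and by 0.36 without replicate 1 of every group, still called. Its range was 333 to 10120 CPM in BALB/c (median 570), against 217 to 851 CPM in C57BL6/J (median 435). In the fasted groups alone, 8 members were higher and 1 lower in BALB/c, beside 16.3% of all genes, with Ctsl at 2.39 ± 0.37 and Tfe3 at 1.56 ± 0.18. The share of all genes called in the reduced runs that follow is not given here, so their counts cannot be set beside it. With replicate 1 of every group left out, 2 were called (Tfe3 and Map1lc3b). Without BALB/c 0 h replicate 1 alone the count was 2 higher (Tfe3 and Map1lc3a) and 1 lower (Atg3), and without both fasted libraries that stood apart 2 were higher (Tfe3 and Gabarapl2). Tfe3 was then 0.96 ± 0.15 higher in BALB/c at 0 h, whereas Ctsl differed by 0.32 ± 0.28 and was not called (adjusted p = 0.55).

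**Figure D5:**
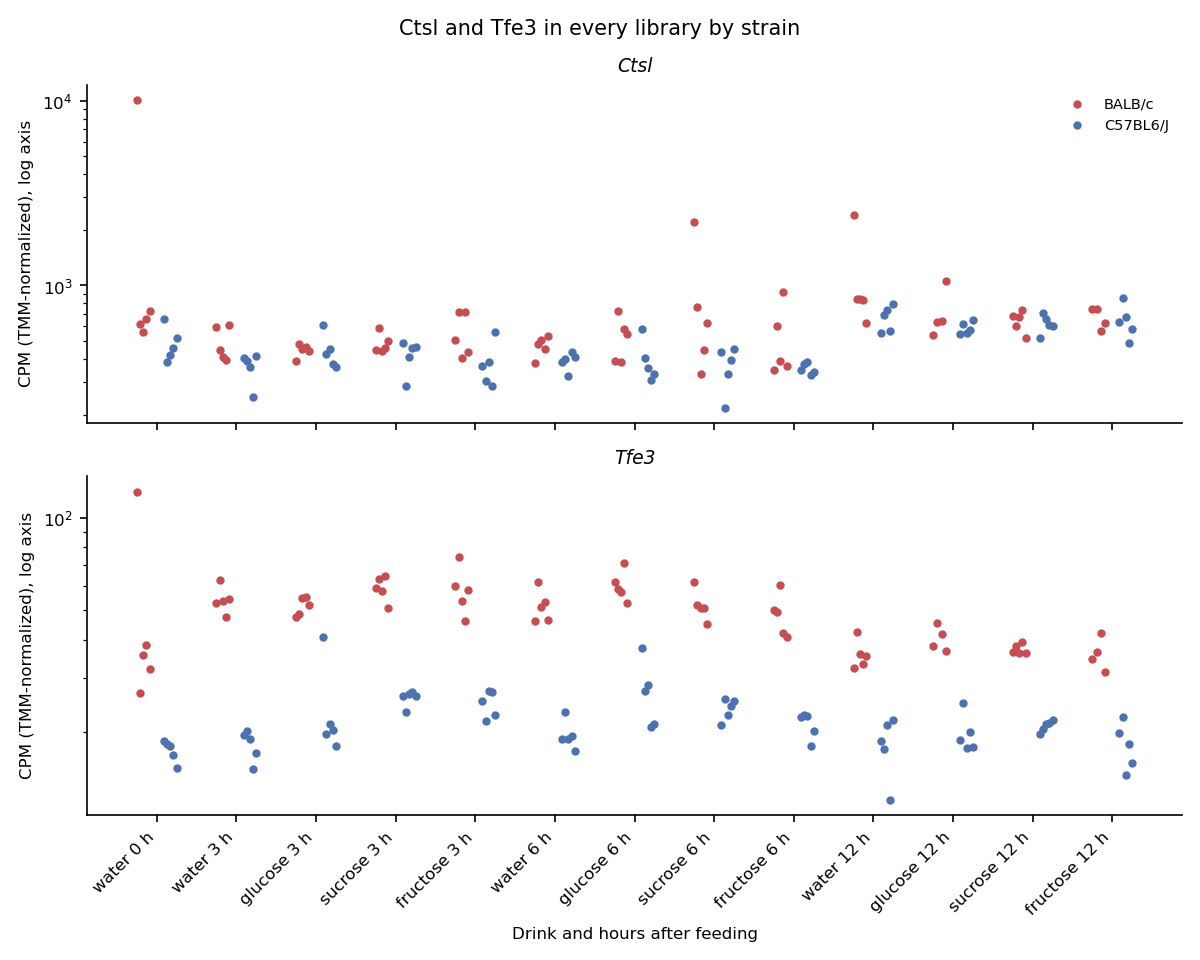
TMM-normalized CPM of Ctsl (upper panel) and Tfe3 (lower panel) on a log axis in every library, for water at 0 h and each drink at 3, 6 and 12 h (horizontal axis), red for BALB/c and blue for C57BL6/J. One fasted BALB/c library stands at 10120 CPM for Ctsl and 122 CPM for Tfe3, and the BALB/c points of Tfe3 lie above the C57BL6/J points in all 13 conditions.

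Whether the time course on water differed between strains was tested over the 3 times together. Of the 36, 1 was called, Ctsl (adjusted p = 0.034), beside 0.634% of all genes, and its largest term was -2.12 ± 0.51 at 6 h (BALB/c minus C57BL6/J). Without BALB/c 0 h replicate 1 the adjusted p for Ctsl was 0.95, and no member was called. With the replicate number as a block it was 0.068, and without C57BL6/J 0 h replicate 2 it was 0.076. No member was called either when any one replicate number was left out, with no filter, without the libraries with the appended letter, or from the water libraries alone. Without both libraries that stood apart Sqstm1 was called, at an adjusted p of 0.040.

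A wider list of 173 autophagy and lysosome genes, of which 170 were matched by symbol and tested, none of them among the 36, was put through the same comparisons. On water 14 rose and 59 fell at 3 h (25.4% of all genes called), 15 rose and 75 fell at 6 h (28.8%), and 5 rose and 36 fell at 12 h (17.6%), with a median of -0.23 at 6 h. Between 6 and 12 h 39 rose and 20 fell, beside 29.1% of all genes. Sugar called 6 higher and 4 lower at 3 h (3.94% of all genes), 1 higher and 4 lower at 6 h (2.72%), and 1 lower at 12 h (0.172%). Between strains 57 were higher and 44 lower in BALB/c, a share near the 55.3% of all genes called. The genes named next are those with the smallest p in each role.

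At 6 h, 12 of 23 further autophagy machinery genes were called, 3 higher and 9 lower. This count and those of the other roles stand beside 28.8% of all genes called at 6 h. Rb1cc1, the scaffold FIP200 of the Ulk1 complex, fell by 0.85 ± 0.14. The Wipi relative Wdr45 was at -0.81 ± 0.10 and the protease Atg4d at -0.78 ± 0.12, while the scramblase Tmem41b rose by 0.81 ± 0.10. Of 14 further cargo receptors 1 rose and 8 fell, with Fam134b, a receptor for endoplasmic reticulum, at -1.78 ± 0.29 and Calcoco1 at -1.63 ± 0.17. Of 16 V-ATPase subunits, the pump that acidifies the lysosome, 1 rose and 5 fell, with Atp6v0a2 at -0.52 ± 0.19.

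Of 40 further hydrolases and cofactors 2 rose and 18 fell at 6 h, among them Ctsf at -0.62 ± 0.12. Of 25 further membrane and transport genes 2 rose and 14 fell. The cholesterol exporter Npc1 changed by -1.25 ± 0.17, the sialic acid exporter Slc17a5 by -0.96 ± 0.12 and the amino acid transporter Slc36a1 by 0.60 ± 0.11.

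Nutrient sensing genes had 5 higher and 12 lower of 36. Flcn and its partner Fnip1, which set Rag GTPase activity at the lysosome, had changes of -1.32 ± 0.18 and -1.17 ± 0.13. The leucine sensor Sesn2 fell by 1.61 ± 0.18, and Lamtor1, which anchors the Rag GTPases, rose by 0.75 ± 0.09. Of 16 further regulators 1 rose and 9 fell, with the fasting factors Foxo1 at -1.07 ± 0.14, Ppargc1a at -1.71 ± 0.25 and Ppara at -1.68 ± 0.28.

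Between strains, the 170 genes included larger differences, for those named by the same rule. Ctsc, a dipeptidyl protease, was at -1.37 ± 0.08 in BALB/c against C57BL6/J, the V-ATPase subunit Atp6v0c at -1.20 ± 0.05 and the lipid-binding cofactor Gm2a at -0.95 ± 0.04. The lysosomal transporter Slc15a4 was higher, at 1.35 ± 0.06.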

How the data were processed

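Liver RNA was sequenced from all libraries, and the authors deposited a table of read counts and a table of FPKM per gene (GRCm38/mm10). Per the submitters' processing notes, CASAVA, STAR 2.5, HTSeq 0.6.1 and DESeq2 were used; the strand setting of the counting was not named in these notes, so reads of a gene and an overlapping antisense gene cannot be told apart. The deposited FPKM equalled count over length and library total. The deposited counts of the 36 genes and all others were tested with edgeR 4.0.16 (R 4.3.3, limma 3.58.1): a filter on low counts over the 26 groups kept 16886 genes, libraries were scaled by TMM, and a robust quasi-likelihood fit with 1 mean per group had 102 residual degrees of freedom. Contrasts gave both strains equal weight, p-values were adjusted by Benjamini-Hochberg within a contrast, and an adjusted p under 0.05 was called. A value after ± is the standard error of a log2 fold change, and intervals are 95%. Levels are TMM-normalized CPM. The fit recovered known changes in simulated counts that had the same spread for every gene and no outlying library. That check does not cover libraries that stand apart. The p-values measure the spread between libraries, which may be technical, since the labels do not state that each is a separate mouse; no 2 libraries were identical, and none agreed within counting noise. Samples were grouped by the labels' strain, drink and hour. The labels do not say what a shared replicate number means, and fewer than all same-numbered pairs passed the correlation of 0.1 required of each, so the numbers were not taken as pairs.

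The 36 genes, the wider list and the tests were chosen with earlier results of these data known. Genes given in every library have an adjusted p under 0.05 and a log2 change of at least 0.5 in a water, mean sugar or mean strain comparison; Sqstm1 was added to these after its values were seen. Of the wider list, the genes with the smallest p per role and a mean of at least 5 CPM are named. Alternatives were DESeq2 1.42.0, its size factors, no filter, a replicate block, the appended name letter as a covariate or as a reason for exclusion, a muscle marker limit of 50 CPM, contrast libraries alone, and each replicate left out. Leaving out the libraries that stood apart was added after seeing the data.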

Additional observations from a re-analysis of the deposited data

Results flagged for a closer look

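Over the 15 genes given in every library, 132 groups of 4 or 5 libraries were examined for a library far from the rest of its group by Dixon's test, and 20 were marked; chance marks about 1 in 20. At 0 h, C57BL6/J replicate 2 was low for Ulk1 (21.2 CPM, others 94.9 to 115) and Gabarapl1 (114 CPM, others 232 to 278). BALB/c replicate 1 at 0 h was high for Ulk1 (137 CPM, others 74.7 to 87.3), Ctsl (10120 CPM, others 557 to 723), Atg2a (303 CPM, others 54.6 to 89.5), Map1lc3b (363 CPM, others 170.2 to 220.0) and Tfe3 (122 CPM, others 26.8 to 38.5).

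On water at 3 h, Gabarapl1 was low in C57BL6/J replicate 4 (61.8 CPM, others 126 to 148), Ulk1 high in BALB/c replicate 4 (34.0 CPM, others 24.2 to 26.7) and Wipi1 low in BALB/c replicate 3 (6.97 CPM, others 7.66 to 7.88). At 6 h, in C57BL6/J, Bnip3 was high in replicate 5 (299 CPM, others 223 to 242) and Atg13 low in replicate 1 (28.3 CPM, others 37.5 to 41.1). At 12 h, C57BL6/J replicate 5 was high for Bnip3 (301 CPM, others 192 to 206) and Mcoln1 (34.8 CPM, others 29.2 to 30.7).

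BALB/c replicate 1 at 12 h was high for Ulk1 (150.0 CPM, others 62.5 to 83.9), Ctsl (2405 CPM, others 626 to 846), Wipi1 (15.9 CPM, others 11.1 to 12.5) and Atg13 (88.4 CPM, others 38.8 to 52.0). With sucrose at 3 h, Ulk1 was high in C57BL6/J replicate 2 (125 CPM, others 67.1 to 81.5) and in BALB/c replicate 4 (117 CPM, others 57.7 to 74.0).

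The change of Ctsl at 6 h against 0 h on water differed between the strains by -2.12 on the log2 scale (BALB/c minus C57BL6/J, edgeR adjusted p = 0.033). Without BALB/c 0 h replicate 1 this difference was -0.12.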

How the results depend on the processing

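Named changes here are the 34 called member changes with a log2 size of at least 0.5. They come from the water against 0 h, mean sugar and mean strain comparisons. Smaller changes and those of other comparisons, such as Sqstm1 with sugar at 3 h, lost their calls in some runs, as given above. No named change reversed under any alternative run. Of 34 named changes, 34 kept direction and call under DESeq2, its size factors, no filter, both treatments of the name letter, replicates 2 to 5 left out in turn, a replicate block, and without C57BL6/J 0 h replicate 2 or BALB/c fructose 6 h replicate 4; from the libraries of the contrast alone, 31 of 31 did. Without replicate 1, the 3 and 6 h changes of Ctsl (-0.39 and -0.27) and the 12 h change of Uvrag (-0.35) were no longer called. The Ctsl calls were also lost without BALB/c 0 h replicate 1. In libraries low in muscle markers 6 of 17 named calls were lost, all at 6 h: Gabarapl1 (-1.18), Ulk1 (-0.43), Atg14 (-0.51), Pik3c3 (-0.40), Tfeb (-0.51) and Atg13 (-0.42). Groups there held as few as 1 library, so these losses cannot be told from lost precision. On water at 6 h, 9 members were called in libraries low in muscle markers. At 12 h, 5 were called from the libraries of the contrast alone, beside 10.0% of all genes. Without one replicate 6 to 11 were called, beside 11.1 to 17.0%. With sugar at 3 h, 5 were called without BALB/c 0 h replicate 1 and without both fasted libraries that stood apart, beside 4.31% and 4.80% of all genes. With sugar at 6 h, 1 was called in libraries without the name letter, beside 0.719% of all genes. Without one replicate 1 to 3 were called, beside 0.724 to 2.05%. For strain by feeding time, 0 were called with no filter, without the name letter, from the contrast's libraries alone, without either fasted library that stood apart, or without any one replicate (0 to 0), against 1 in the main test and 1 without both.

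Same-numbered libraries deviated together in part: 16 of 30 pairs correlated above 0.1 (range -0.12 to 0.40), and 15 correlated best with their own number. At 3 h, 4 of 5 pairs in each strain correlated above 0.1, and 4 of 5 best with their own number. This is a hint from the data, not from the design. A replicate block called 4633 genes on water at 3 h, against 4292 without it. With the block, 17, 23 and 11 members were called on water at 3, 6 and 12 h, beside 27.4%, 30.8% and 19.4% of all genes. With sugar 4, 3 and 0 were called, beside 5.00%, 3.87% and 0.166%. Between strains 22 were called, beside 57.2%, and 0 for strain by feeding time, beside 0.705%. The limit on muscle markers left groups with no library for the water and mean sugar results at 3 h, mean sugar at 6 h, the mean strain result and strain by feeding time, which were not run. It called 0 members with sugar at 12 h, with fructose or sucrose at 6 h, and for fructose against glucose at 3 h. Not run either was the mean strain result from its own libraries alone, as these are the whole series. The causes of these changes were not tested. Groups of 4 or 5 libraries limit the precision throughout.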
